A study of Populus trichocarpa
Populus deltoides with 74 samples.

Results

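Lateral vegetative buds of poplar were compared with the upper tips of growing shoots collected in June, at the 4 tree ages at which both organs were sampled (1, 2, 5 and 6 years). The comparison takes the lateral vegetative buds that carry no male label and the June shoot tips that are labelled female and not basal, matched by age with equal weight for each age. It holds 30 of the 74 arrays of the series, which are 8 RNA isolations of buds and 7 of June tips, each hybridised to 2 wells. Every bud group and the June tips of ages 1, 2 and 6 had 2 isolations, and the June tips of age 5 had 1. All trees are described as wild type, and both Populus trichocarpa and Populus deltoides are named as the organism. The sex of the bud trees and the month of bud sampling are not stated. Organ, stated sex, season and position on the shoot therefore cannot be told apart in any difference below. The isolations are called biological replicates, but separate trees are not mentioned, and the p-values therefore measure a spread between isolations that may be technical.

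A lateral vegetative bud is a short, preformed shoot enclosed in scales, whereas an upper shoot tip in early summer carries an active apical meristem, expanding leaves and elongating stem. Auxin made in young leaves of a growing tip is moved down the stem by PIN efflux carriers, and cells read it through Aux/IAA proteins, repressors that are degraded when auxin is present and whose genes are themselves often switched on by it. Flower formation draws on LEAFY and APETALA1, which give a meristem its floral identity, on AGAMOUS and DEFICIENS relatives, which give floral organs theirs, and on CONSTANS, phytochromes and cryptochromes, which read day length and light. The array carries oligos for genes of these groups, and 34 of its 217 oligos have a gene-like name. The other 183 are known only by a clone name or accession, and no position in the genome came with any of them. None of the named oligos is a defining marker of bud scales, leaf or stem, so the organ labels were not checked against such markers.

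Values are quantile-normalized log2 intensities averaged over the 2 wells of an isolation, and a difference is bud minus tip as the mean of the 4 ages. Log base 2 was read from the range of the values, since the labels do not give it. Deposited array medians differed little between the organs (8.19 to 8.52 in buds, 8.07 to 8.47 in tips), but the tip arrays were wider. Their SD across oligos was 2.20 to 2.48 and their brightest value 14.22 to 16.24, against 1.92 to 2.18 and 12.74 to 14.18 in buds. Quantile normalization removes this gap in width. In the brightest 25% of oligos it moved the bud minus tip difference by a median of 0.60 relative to the values as deposited, and in the dimmest 25% by -0.17. The difference of the median oligo was 0.14 on the quantile scale, -0.02 as deposited, -0.15 after median centring and 0.08 after cyclic loess.

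One bud isolation stood apart. Isolation a of the age 1 buds correlated at a mean of 0.914 with the other bud isolations and at 0.904 with the June tips, whereas the other 7 bud isolations had means of 0.936 to 0.949 with buds and of 0.809 to 0.852 with tips. Its difference from isolation b had an SD of 0.749 across oligos, against 0.276 to 0.498 for the pairs of the other bud ages and 0.595 to 0.612 for the June tip pairs. Results are therefore given with it and, where it changes them, without it.

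**Figure D1:**
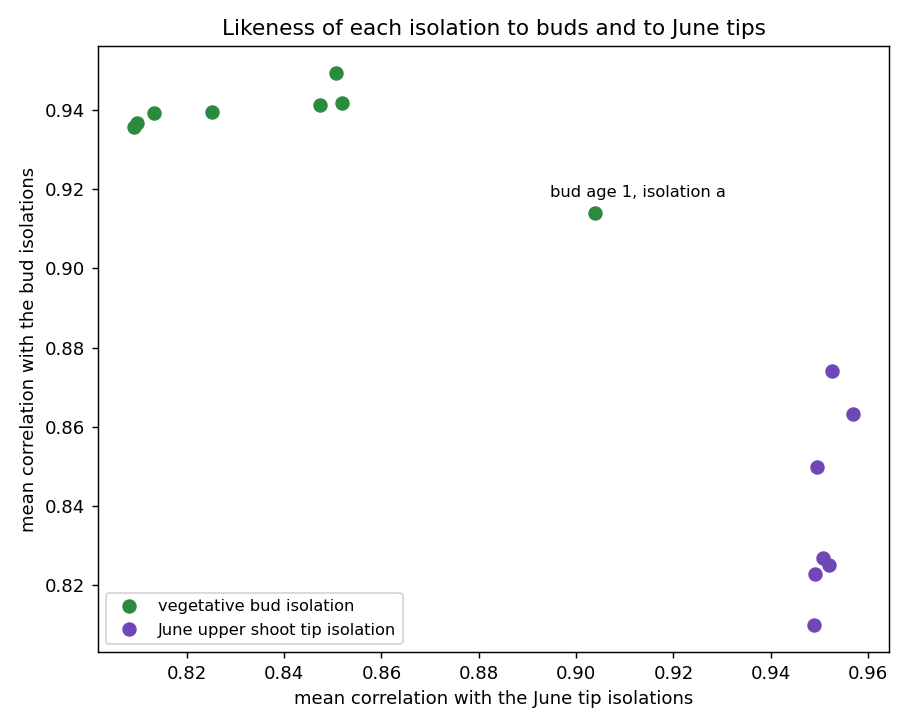
Each point is an RNA isolation, placed by its mean Pearson correlation across oligos with the June tip isolations (horizontal axis) and with the bud isolations (vertical axis), leaving itself out. The 7 other bud isolations lie between 0.809 and 0.852 on the horizontal axis. Isolation a of the age 1 buds lies at 0.904 there and at 0.914 on the vertical axis, more like the tips than the other buds are.

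Buds and June tips differed in most of the oligos measured. Among named genes, the auxin carrier oligo PTTPIN3 and the auxin-response oligos PttIAA4, PttIAA1 and PttIAA5 were lower in buds, and PttIAA2, the APETALA1 relative PTAP1-1B, the INDETERMINATE1-like PTID1L1A, the homeobox gene HB2 and PTBF1 were higher. In all, 147 of 217 oligos (67.7%) passed an adjusted p of 0.05 in the limma test, 87 higher in buds (40.1%) and 60 lower (27.6%), and 152 had an unadjusted p under 0.05. Differences of at least 1 were found in 26 of the called rises and 29 of the called falls. Of the 34 named oligos, 19 were called higher, 5 lower and 10 were not called, with a median difference of 0.44 against 0.14 over all oligos. The 19 higher differences ran from 0.38 to 2.04, or from 0.24 to 1.90 above the median oligo, and the 5 lower ones from -2.77 to -0.68. Without isolation a of the age 1 buds 144 oligos were called, 85 higher and 59 lower, among them again 19 and 5 named ones.

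The balance of rises and falls depended on the scaling. As deposited, 138 oligos were called (63.6%), 77 higher (35.5%) and 61 lower (28.1%). With arrays centred on their medians the split turned, with 56 higher (25.8%) and 77 lower (35.5%) of 133 called (61.3%). After cyclic loess it was 77 (35.5%) and 68 (31.3%) of 145 (66.8%). Called with the same sign on the quantile, deposited and median-centred scales were 102 oligos, 54 higher and 48 lower, and 19 of the 34 named ones were among them. All 8 bud isolations lay above all 7 tip isolations for 24 oligos (11.1%) and below them for 16 (7.37%), 40 in all (18.4%). Among the named oligos this held for 5 above (PTCRY1D, PttIAA2, HB2, PTBF1 and PTPGM) and 3 below (PttIAA4, PttIAA5 and PMFT). Leaving out isolation a of the age 1 buds, the counts were 55 over all oligos and 11 over the named ones. Leaving out any isolation can only keep or raise such counts.

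**Figure D2:**
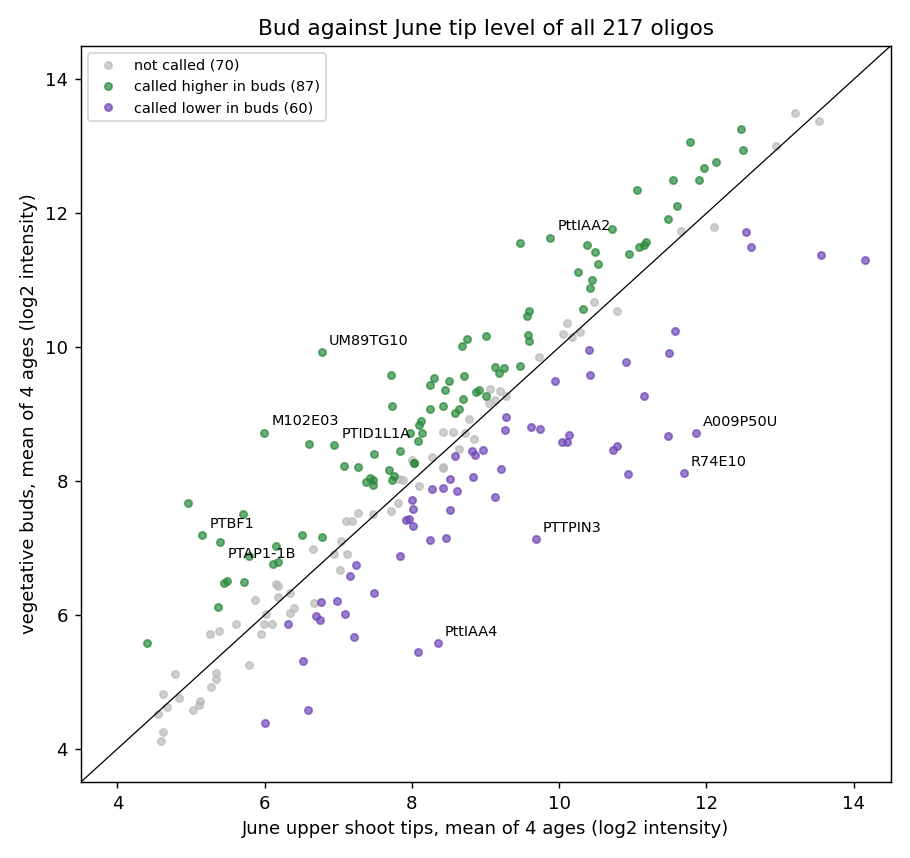
Each point is an oligo, with its mean over the 4 ages in June tips on the horizontal axis and in vegetative buds on the vertical axis, both as quantile-normalized log2 intensity; the line marks equal levels. The 87 oligos called higher in buds lie above the line and the 60 called lower below it, with the clone oligos R74E10 and A009P50U farthest below and UM89TG10 farthest above.

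The auxin genes gave some of the largest differences among named oligos, and they went both ways. PTTPIN3, named as a PIN efflux carrier, ran from 6.66 to 9.23 in buds with a median of 6.84, and from 8.63 to 10.34 in June tips with a median of 9.77. The only bud isolation inside the tip range was isolation a of age 1 at 9.23, since the other 7 buds lay between 6.66 and 7.05. PTTPIN3 was lower in buds by -2.55 ± 0.24 (SE, n = 8 buds and 7 tips, adjusted p = 5.7e-09), and by -2.86 ± 0.15 without that isolation. In RNA from whole organs, fewer cells that express a gene and less of its RNA per cell cannot be told apart, here and in what follows.

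The other carriers differed less and in the opposite direction. PTTPIN1 ran from 5.99 to 7.30 in buds (median 6.86) and from 5.65 to 6.70 in tips (median 6.26), a difference of 0.61 ± 0.20 (adjusted p = 0.0113). PTTPIN2 ran from 6.56 to 7.48 in buds (median 7.08) and from 5.12 to 7.10 in tips (median 6.15), a difference of 0.88 ± 0.32 (adjusted p = 0.0202). Bud and tip isolations overlapped for both. PTTPIN1 lost its call without age 5 (0.49, adjusted p = 0.0544), and PTTPIN2 without age 6 (0.58, adjusted p = 0.188). With the male vegetative buds at age 6, neither PTTPIN1 (0.45, adjusted p = 0.0554) nor PTTPIN2 (0.58, adjusted p = 0.109) was called. So 2 of the 3 carriers were called higher and 1 lower in buds, and only the call of PTTPIN3 held in these settings.

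Of the 5 Aux/IAA oligos, 3 were lower in buds and 2 higher. PttIAA4 lay between 5.18 and 6.42 in buds (median 5.53) and between 7.81 and 8.88 in June tips (median 8.26). No bud reached the lowest tip, and the difference was -2.77 ± 0.24 (adjusted p = 1.9e-09). PttIAA1 ran from 7.86 to 9.74 in buds (median 8.39) and from 9.66 to 10.50 in tips (median 10.34), overlapping in isolation a of the age 1 buds alone. Its difference was -1.53 ± 0.10 (adjusted p = 8.3e-12). PttIAA5 ran from 9.38 to 10.20 in buds (median 9.81) and from 10.53 to 11.50 in tips (median 10.85), again with no overlap, and differed by -1.14 ± 0.13 (adjusted p = 7.8e-08).

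PttIAA2, which belongs to the same repressor family by name, showed the reverse pattern. It lay between 11.42 and 12.11 in buds (median 11.59) and between 9.72 and 10.20 in June tips (median 9.81), with every bud above every tip and a difference of 1.76 ± 0.15 (adjusted p = 7.4e-10). PttIAA6 was also called higher, from 8.15 to 10.24 in buds (median 8.95) and from 7.61 to 8.99 in tips (median 8.74), at 0.43 ± 0.18 (adjusted p = 0.0357). That call was lost in 8 of the 15 fits that leave out 1 isolation, among them those without isolation a of the age 1 buds (0.30) and isolation a of the age 6 tips (0.29). Leaving out the single isolation of the age 5 tips drops age 5 from both organs, with its buds at 10.06 and 10.24, and gave 0.10. The call was also lost after median centring (0.26, adjusted p = 0.195). The signs of the other 4 were the same on the quantile, deposited, median-centred and loess scales.

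**Figure D3:**
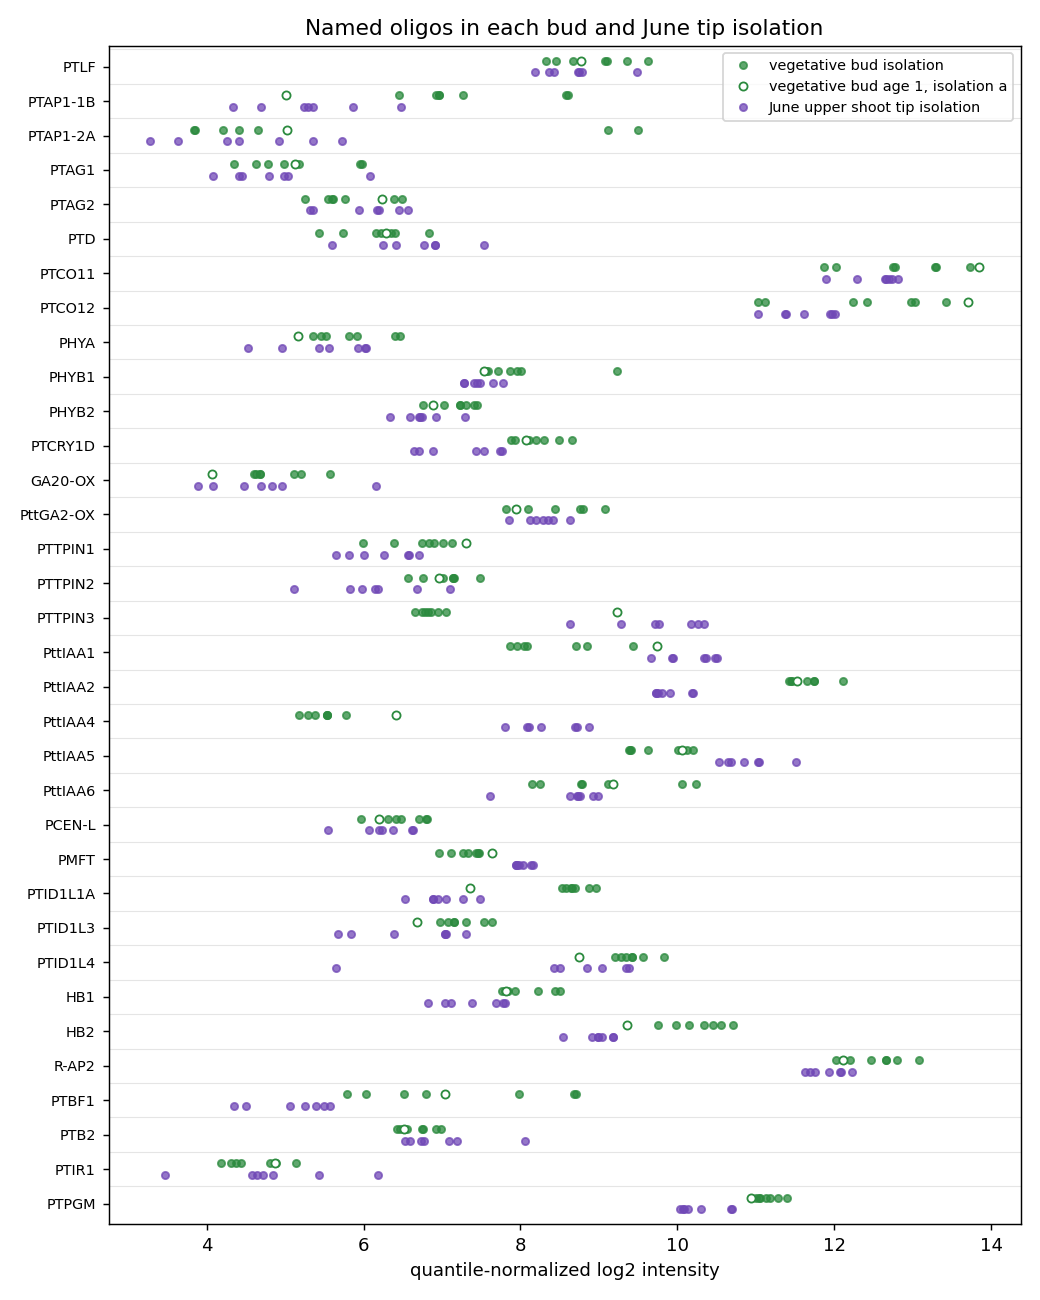
Each row is a named oligo and each point an RNA isolation, placed by its quantile-normalized log2 intensity, with buds in green above June tips in purple; the open point is isolation a of the age 1 buds. PttIAA4 shows buds between 5.18 and 6.42 and tips between 7.81 and 8.88, whereas for the floral organ genes PTAG1, PTAG2 and PTD both organs share their range.

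Genes of floral meristem identity were higher in buds for the 2 APETALA1 relatives. PTAP1-1B ran from 5.01 to 8.61 in buds (median 6.96) and from 4.34 to 6.48 in June tips (median 5.30). The lowest bud value was again isolation a of age 1, and the highest were the age 6 buds at 8.61 and 8.58. The difference was 1.70 ± 0.32 (adjusted p = 7.6e-05), it was 1.98 ± 0.28 without that age 1 isolation, and 1.21 ± 0.37 (adjusted p = 0.0095) over ages 1, 2 and 5.

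PTAP1-2A differed through the age 6 buds alone. They stood at 9.12 and 9.50, and the other 6 bud isolations lay between 3.84 and 5.02, inside the range of the June tips (3.28 to 5.73, median 4.41). The mean difference was 1.17 ± 0.39 (adjusted p = 0.0114), and over ages 1, 2 and 5 it was 0.31 ± 0.46 (adjusted p = 0.565). With the male vegetative buds of age 6 in place of those with no stated sex it was 0.73 ± 0.39 (adjusted p = 0.0979). PTLF, the LEAFY relative, ran from 8.32 to 9.62 in buds (median 8.92) and from 8.19 to 9.48 in tips (median 8.73), and its difference of 0.14 ± 0.12 was not called (adjusted p = 0.294). Without age 5 in either organ it was 0.32 and called (adjusted p = 0.0401).

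None of the 3 floral organ identity oligos was called over the 4 ages. PTAG1 and PTAG2, named as AGAMOUS relatives, differed by 0.34 ± 0.31 (adjusted p = 0.32) and -0.13 ± 0.23 (adjusted p = 0.617). The PTAG2 mean joined opposite signs, at -0.41, -0.95, -0.28 and 1.11 for ages 1, 2, 5 and 6. Of these only the age 6 value was called (adjusted p = 0.0373). As deposited, its age 2 (-1.215, adjusted p = 0.0279) and age 6 values (1.40, adjusted p = 0.00795) were called. With the male vegetative buds the age 6 value was 0.49 (adjusted p = 0.355). PTD, a DEFICIENS relative, differed by -0.49 ± 0.23 (adjusted p = 0.064). It was called in 3 of the 15 fits that leave out 1 isolation, at -0.60 to -0.57. The 6 floral identity oligos also serve as markers of flower tissue in a bud sample. Their mean level was 7.53 to 7.73 in the age 6 vegetative buds compared here, 5.92 to 6.23 in those of ages 1, 2 and 5 and 5.55 to 6.24 in June tips. It was 10.36 to 11.28 in the 4 floral bud isolations of the series. The male vegetative buds of age 6, outside the comparison, had means of 7.37 and 6.39. In the age 6 buds compared here 5 of the 6 markers lay above every vegetative bud isolation of ages 1, 2 and 5, PTD being the exception. The share of all oligos that did so was not counted, so the 5 of 6 cannot be set against it. The part of flower tissue in the age 6 differences was not tested.

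For the CONSTANS relatives, named after a promoter of flowering that responds to day length, the result rested on the scaling. In PTCO11 even the direction did. PTCO11 ran from 11.87 to 13.84 in buds (median 13.03) and from 11.90 to 12.81 in tips (median 12.65), and its difference of 0.44 ± 0.11 (adjusted p = 0.00179) was -0.43 as deposited (adjusted p = 0.0077) and -0.57 after median centring (adjusted p = 0.00104), all of them called. PTCO12 ran from 11.03 to 13.71 in buds (median 12.70) and lay at a median of 11.62 in tips, all of them below the bud median, with a difference of 0.95 ± 0.13 (adjusted p = 1.2e-06) that was 0.21 as deposited (adjusted p = 0.195) and 0.08 after median centring (adjusted p = 0.652). After cyclic loess the differences were 0.30 for PTCO11 (adjusted p = 0.0125) and 0.83 for PTCO12 (adjusted p = 1.9e-06). Both oligos are bright, in the range where the wider tip arrays and the scaling matter most.

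Of the 4 light receptors 3 were called higher in buds, and all 4 differences were above 0 on the quantile, deposited, median-centred and loess scales. PTCRY1D, a cryptochrome by name, ran from 7.88 to 8.66 in buds (median 8.15) and from 6.65 to 7.76 in June tips (median 7.44). Every bud lay above every tip, and the difference was 0.93 ± 0.13 (adjusted p = 1.7e-06). PHYB1 and PHYB2, phytochrome B relatives, were called at 0.46 ± 0.17 (adjusted p = 0.0176) and 0.38 ± 0.14 (adjusted p = 0.0187). PHYB1 rested in part on isolation a of the age 2 buds, at 9.23 with no other bud within 1 of it, and fell to 0.25 without it. PHYB2 lost its call in 3 of the 15 fits that leave out 1 isolation, at 0.31 to 0.32. PHYA, phytochrome A, differed by 0.39 ± 0.24 (adjusted p = 0.159) and was called only without isolation a of the age 1 buds (0.55, adjusted p = 0.0425).

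The gibberellin oligos were not called. GA20-OX, for an enzyme of the last steps of gibberellin synthesis, differed by 0.19 ± 0.30 (adjusted p = 0.571), and PttGA2-OX, for an enzyme that inactivates the hormone, by 0.09 ± 0.20 (adjusted p = 0.688).

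All 3 oligos named for INDETERMINATE1, a zinc finger regulator of flowering known from maize, were higher in buds. PTID1L1A ran from 7.36 to 8.96 in buds (median 8.65) and from 6.52 to 7.48 in June tips (median 6.95), and differed by 1.59 ± 0.19 (adjusted p = 2.5e-07). Without isolation a of the age 1 buds, its lowest bud, no bud overlapped a tip and the difference was 1.75 ± 0.18. PTID1L3 differed by 0.69 ± 0.25 (adjusted p = 0.0196) and PTID1L4 by 0.90 ± 0.34 (adjusted p = 0.0239). Both calls depended on single isolations. PTID1L4 was 0.48 and no longer called without isolation b of the age 1 tips. That isolation stood at 5.65 where the other tips lay at 8.43 or above. PTID1L3 lost its call in 4 of the 15 fits that leave out 1 isolation. Without age 5 in either organ it was 0.44 (adjusted p = 0.165).

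Among the other transcription factors, the homeobox oligo HB2 ran from 9.35 to 10.71 in buds (median 10.24) and from 8.55 to 9.18 in tips (median 8.99), with no overlap and a difference of 1.16 ± 0.12 (adjusted p = 1.7e-08). HB1 differed by 0.61 ± 0.15 (adjusted p = 0.00138). R-AP2, an AP2-type gene by name, differed by 0.61 ± 0.11 (adjusted p = 3.2e-05) on the quantile scale, by -0.10 as deposited (adjusted p = 0.371) and by -0.24 after median centring (adjusted p = 0.0398), so its direction was not settled.

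Of the relatives of the flowering repressor CENTRORADIALIS and of MOTHER OF FT AND TFL1, PMFT was lower in buds and PCEN-L was not called. PMFT ran from 6.97 to 7.64 in buds (median 7.39) and from 7.94 to 8.16 in June tips (median 7.99), a narrow range in both and no overlap. Its difference was -0.68 ± 0.11 (adjusted p = 7.2e-06), and at each of the 4 ages it lay between -0.75 and -0.53. PCEN-L differed by 0.31 ± 0.15 (adjusted p = 0.0699), and it was called as deposited (0.57, adjusted p = 0.0019) and after median centring (0.43, adjusted p = 0.00872).

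The remaining named oligos have no role given in the files. PTBF1 ran from 5.79 to 8.71 in buds (median 6.92) and from 4.35 to 5.57 in June tips (median 5.26), with no overlap and a difference of 2.04 ± 0.17 (adjusted p = 9.5e-10). PTPGM ran from 10.94 to 11.40 in buds (median 11.09) and from 10.04 to 10.69 in tips (median 10.14), also with no overlap, and differed by 0.87 ± 0.09 (adjusted p = 1.0e-08). Its difference was 0.46 as deposited and 0.32 after median centring, and still called. PTB2 (-0.35 ± 0.23, adjusted p = 0.176) and PTIR1 (-0.04 ± 0.28, adjusted p = 0.911) were not called.

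**Figure D4:**
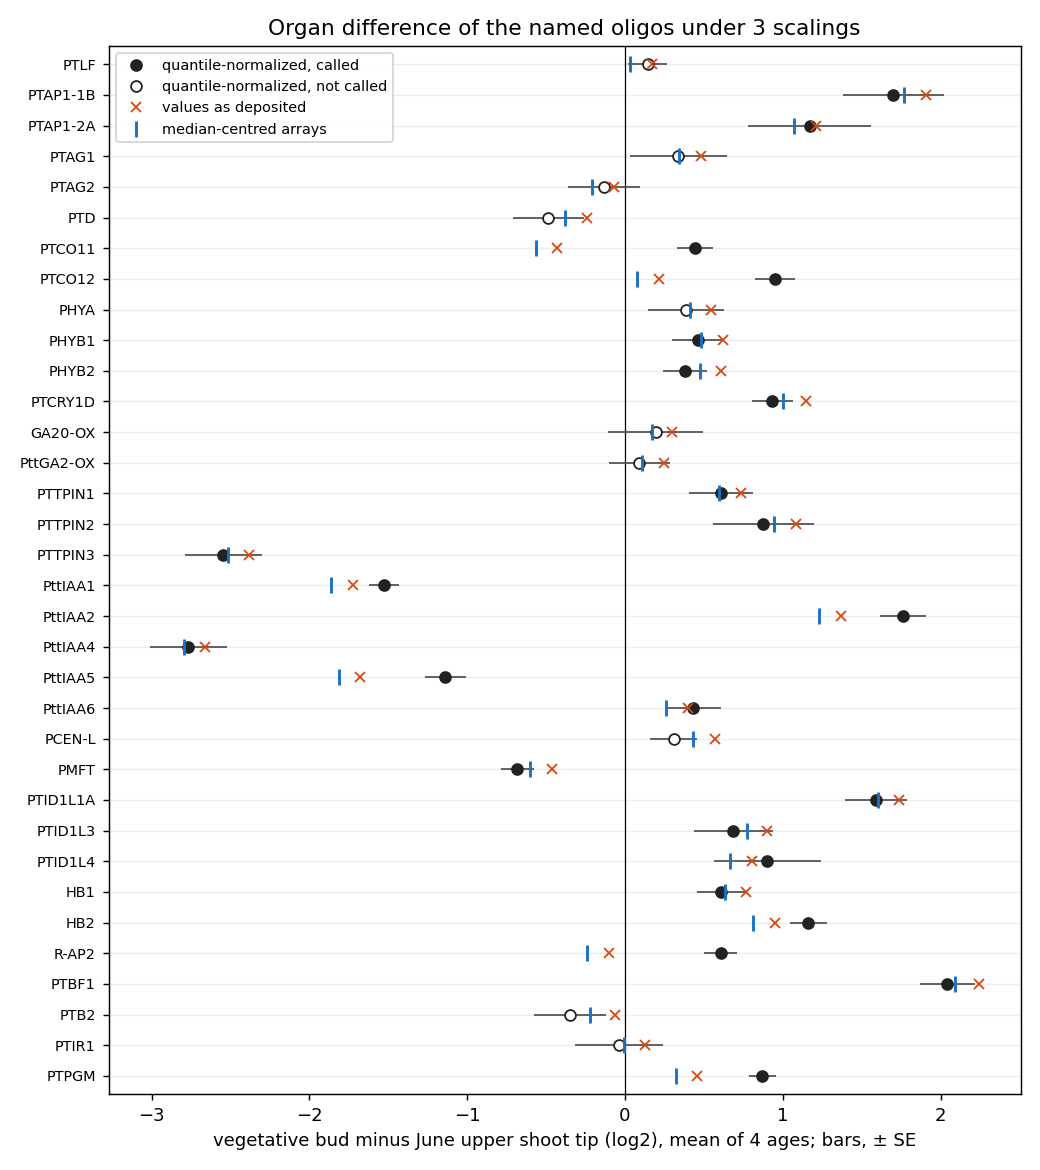
Each row is a named oligo, with its bud minus June tip difference in log2 units on the horizontal axis. Circles with SE bars are the quantile-normalized values, filled where called, crosses the values as deposited and vertical ticks the median-centred arrays. The 3 scalings lie close together for PTTPIN3 and PttIAA4 near the left edge, and on opposite sides of 0 for PTCO11 (0.44, -0.43 and -0.57) and R-AP2 (0.61, -0.10 and -0.24).

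The largest rise and the largest fall of all were in oligos known only by a clone name. R74E10 ran from 6.32 to 11.16 in buds (median 8.14) and from 11.29 to 12.22 in June tips (median 11.63), a difference of -3.58 ± 0.33 (adjusted p = 4.0e-09). A009P50U ran from 8.03 to 9.91 in buds (median 8.71) and from 10.96 to 12.36 in tips (median 11.89), a difference of -3.14 ± 0.16 (adjusted p = 1.2e-13). In both, the highest bud was isolation a of age 1, and no bud reached the lowest tip.

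UM89TG10 ran from 8.88 to 10.57 in buds (median 9.93) and from 5.24 to 7.47 in tips (median 7.11), a difference of 3.16 ± 0.35 (adjusted p = 5.0e-08). M102E03 ran from 7.63 to 9.72 in buds (median 8.60) and from 4.60 to 6.89 in tips (median 6.15), a difference of 2.73 ± 0.25 (adjusted p = 2.2e-09). Every bud lay above every tip for both. Of the 183 oligos without a gene-like name, 68 were called higher, with a median of 0.71, and 55 lower, with a median of -0.95.

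Whether the organ difference holds at every tree age was asked next. At age 1, 50 oligos were called (23%), at age 2 90 (41.5%), at age 5 85 (39.2%) and at age 6 110 (50.7%). Without isolation a, 58 were called at age 1. Called at all 4 ages with a single sign were 26 of the 217 oligos, 14 higher and 12 lower. Among them were 7 of the 34 named ones. PttIAA2 and HB2 were higher in buds, and PTTPIN3, PttIAA1, PttIAA4, PttIAA5 and PMFT were lower. As deposited, PMFT was called at age 6 alone (adjusted p = 0.0284) and HB2 was not called at age 1 (adjusted p = 0.102). The 4 differences shared a sign in 118 of all 217 oligos and in 21 of the 34 named ones.

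PTTPIN3 differed by -2.27 ± 0.46 at age 1, -3.25 ± 0.46 at age 2, -2.37 ± 0.56 at age 5 and -2.30 ± 0.46 at age 6. Without isolation a the value at age 1 was -3.51. PttIAA4 differed by -2.11, -2.98, -2.84 and -3.13 at the same ages, each ± 0.46 except 0.56 at age 5. The test of the organ difference by age called neither PTTPIN3 (adjusted p = 0.506) nor PttIAA4 (adjusted p = 0.517). Without isolation a of the age 1 buds the adjusted p of PTTPIN3 was 0.0647.

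That test, a moderated F test with a separate organ difference for each age, called 56 oligos (25.8%), and 48 without isolation a of the age 1 buds. Among the named oligos it called 8: PTLF, PTAP1-2A, PTCO11, PTCO12, PttIAA1, PttIAA6, PTBF1 and PTPGM. As deposited and after median centring 4 of these passed as well, namely PTLF, PTCO12, PttIAA1 and PTBF1. PTAG2 and PTCRY1D were not called on the quantile scale (adjusted p = 0.0666 and 0.0996). Both passed as deposited (0.0127 and 0.0295), after median centring (0.0285 each) and after cyclic loess (0.0273 and 0.0331). Without isolation a of the age 1 buds, PTCO11 (adjusted p = 0.0627) and PTPGM (adjusted p = 0.157) were not called. With the hybridisation set (groups of isolations found from the differences between their wells) as a term, over ages 2, 5 and 6, only PttIAA1 (adjusted p = 0.0159) and PTBF1 (adjusted p = 3.9e-04) of the 8 were called. PTCO12 was not called over ages 1, 2 and 6 (adjusted p = 0.247), nor was PTBF1 (adjusted p = 0.0892), so both calls were lost without age 5, which has a single tip isolation.

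PttIAA1 was the clearest case. Its difference was -0.82 ± 0.18 at age 1, -1.16 ± 0.18 at age 2, -1.76 ± 0.22 at age 5 and -2.37 ± 0.18 at age 6 (adjusted p of the F test = 6.8e-04). It was called in all 15 fits that leave out 1 isolation. In buds PttIAA1 stood at 9.44 and 9.74 at age 1, 8.70 and 8.84 at age 2, 7.86 and 7.95 at age 5 and 8.05 and 8.08 at age 6. The tips stood at 10.34 and 10.48, at 9.93 and 9.94, at 9.66 and at 10.36 and 10.50 at the same ages. Both organs were thus lower at age 5 than at age 1, the tips by less, and at age 6 the tips were back at their age 1 level. The mean difference of ages 5 and 6 minus that of ages 1 and 2 was -1.07 ± 0.19 (adjusted p = 3.5e-04).

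PTBF1 differed by 2.19 at age 1, 3.42 at age 2, 0.34 at age 5 and 2.23 at age 6 (adjusted p of the F test = 0.00133). Its buds stood highest at age 2, at 8.69 and 8.71, and lowest at age 5, at 5.79 and 6.03, where the single tip isolation was at 5.57. PTLF differed by -0.22, 0.28, -0.39 and 0.91 at ages 1, 2, 5 and 6 (adjusted p of the F test = 0.0262), and only the age 6 value was called (adjusted p = 0.00247). In PTAP1-2A the values were 0.16, 0.36, 0.39 and 3.77 (adjusted p of the F test = 0.0295), and again age 6 alone was called (adjusted p = 1.8e-04). The F test of PTAP1-2A gave adjusted p = 0.0579 as deposited.

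Between the older trees (ages 5 and 6) and the younger ones (ages 1 and 2) the organ difference itself differed in 53 oligos (24.4%), 25 upward (11.5%) and 28 downward (12.9%). The split was 15 and 28 after median centring, and 23 and 15 without age 5, where age 6 alone stood for the older trees. Of the 34 named oligos 7 were called, 3 upward (PTCRY1D, PttIAA6 and PTPGM) and 4 downward (PTCO11, PTCO12, PttIAA1 and PTBF1). Without isolation a of the age 1 buds, PTCRY1D (adjusted p = 0.0588) and PTPGM (adjusted p = 0.0518) were no longer called, and PTTPIN3 (1.05, adjusted p = 0.0146) and PttIAA5 (0.72, adjusted p = 0.0406) were called upward. PTCRY1D differed by 0.44 ± 0.24 at age 1 and by 1.47 ± 0.24 at age 6, and its contrast of older and younger trees was 0.75 ± 0.26 (adjusted p = 0.0406) with all isolations. Of the clone oligos with the smallest F test p-values, V021F11 differed by -1.49, -1.40, -0.73 and 0.36 at ages 1, 2, 5 and 6 (adjusted p = 4.9e-05). V063C08 was apart only at age 2, at -3.36, where its 2 buds stood at 7.12 and 7.72 and the other buds at 10.52 or above.

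**Figure D5:**
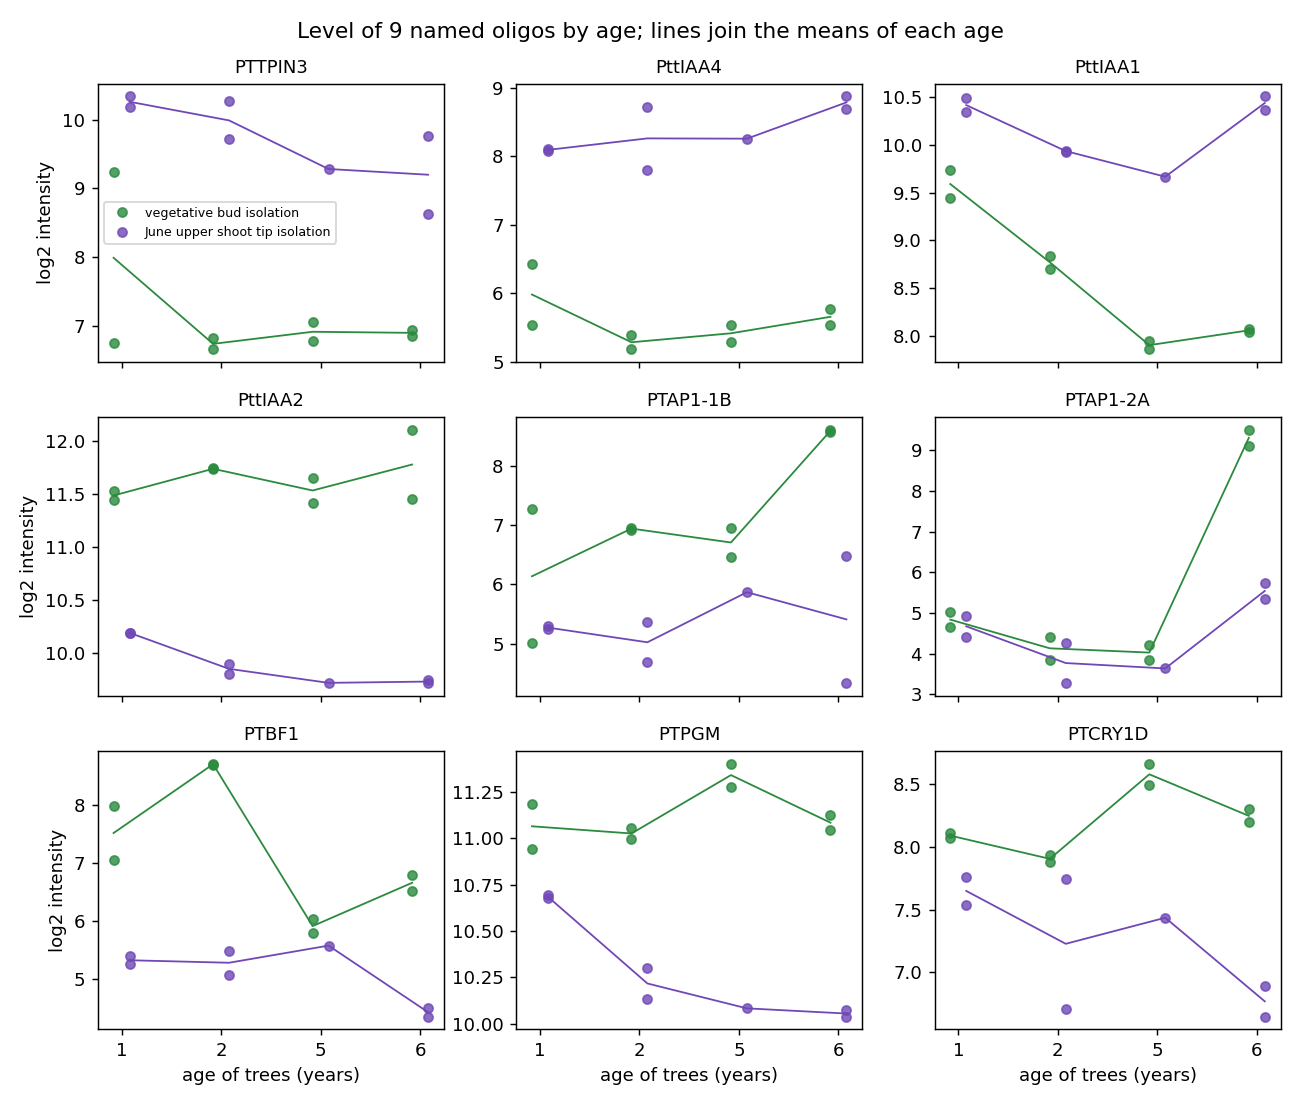
Each panel is a named oligo, with tree age in years on the horizontal axis (evenly spaced) and log2 intensity on the vertical axis, which differs between panels; points are isolations, buds in green and June tips in purple, and lines join the means. In PttIAA1 both lines fall from age 1 to age 5, the bud line by more, and at age 6 only the tips are back near their age 1 level, and in PTAP1-2A the buds leave the tips at age 6 alone.

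Upper tips of the same ages were also collected in May. June and May upper tips of the same ages differed in 78 oligos (35.9%), 37 higher in June (17.1%) and 41 lower (18.9%). Of the 34 named oligos 13 were called, 2 higher in June and 11 lower. May and June upper tips lay in different hybridisation sets, so month and set cannot be told apart directly, and with the set as a term, over ages 2, 5 and 6, 13 of the 217 oligos were called. Against May tips, 131 oligos were called for buds (60.4%), 71 higher (32.7%) and 60 lower (27.6%). Of the named ones 12 were higher and 8 lower. These values share the buds with those against June tips and are set beside them without a test.

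PTTPIN3 was lower in June than in May tips by -0.95 (adjusted p = 0.00414), and buds differed from May tips by -3.50. PttIAA1 gave -0.86 for June minus May (adjusted p = 1.3e-06) and -2.39 for buds against May. PttIAA4 gave 0.46 for June minus May (adjusted p = 0.148) and -2.31 for buds against May, and PttIAA2 gave -0.52 (adjusted p = 0.00767) and 1.24. The direction against buds was thus the same in both months for these 4 oligos.

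The CONSTANS relatives differed between the May and June tips. PTCO12 was lower in June than in May tips by -1.28 (adjusted p = 3.1e-07) and PTCO11 by -0.77 (adjusted p = 2.6e-05), and as deposited these values were -1.10 and -0.51. Against May tips the buds gave -0.33 for PTCO12 and -0.32 for PTCO11, where against June tips they gave 0.95 and 0.44. As deposited, the values against May tips were -0.89 for PTCO12 and -0.94 for PTCO11, beside 0.21 and -0.43 against June tips. These were the only 2 named oligos called in opposite directions against the 2 months on the quantile scale.

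The bud and tip arrays also fell into different hybridisation sets. The differences between the 2 wells of each isolation sorted the 37 isolations into 5 sets, and 0 of them held both organs of this comparison, so the set and the organ cannot be told apart directly. No plate or date is labelled, and what the sets are is not known. A fit with the set as a term was possible for ages 2, 5 and 6, through the June basal tips of age 5, whose isolations a and b fell in different sets. It called 51 of the 217 oligos, 27 higher in buds and 24 lower, against 143 for the same ages without the set. Of the 51, 50 had been called with the same sign over all ages. Of the 34 named oligos 10 were called: PTCRY1D, PttIAA2, PTID1L1A, HB2, R-AP2, PTBF1 and PTPGM higher, and PTTPIN3, PttIAA1 and PttIAA5 lower.

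In that fit the standard errors were wider. PTTPIN3 differed by -3.02 ± 0.78 (adjusted p = 0.00838) and PttIAA1 by -1.38 ± 0.27 (adjusted p = 0.00115). PttIAA4, at -1.97 ± 0.72, was no longer called (adjusted p = 0.0559), nor was PTAP1-1B at 2.16 ± 1.01 (adjusted p = 0.127) or PMFT at -0.44 ± 0.32 (adjusted p = 0.328). All 24 named oligos called over the 4 ages kept their sign. This fit was run on the quantile scale only, where R-AP2 is higher in buds.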

How the data were processed

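The deposited table holds 1 value per oligo and array for 217 oligos on 74 arrays. Total RNA was labelled with Cy5 and hybridised in microplates, 2 wells per isolation, per the series' design text. The values are log2 intensities as deposited by the authors. The log base was inferred from the range of 1.10 to 16.25. What the authors did about background, scaling and duplicate spots goes unrecorded in the labels. Missing values (1.35%) stayed missing. No oligo sequence was used here, and 0 IDs matched the RefSeq gene table. Signal over background cannot be judged from the table, and the number of arrays limits the precision.

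Arrays were quantile-normalized and wells averaged. A model with a mean for each of 19 groups was fitted to 37 isolations with limma 3.58.1 in R 4.3.3 (18 residual degrees of freedom). Tests are two-sided moderated tests, and the test by age is a moderated F test. Adjustment was by Benjamini-Hochberg over all oligos, and a call is an adjusted p under 0.05. The code was tested on simulated data. Named are all oligos with a gene-like name, by list, and among clone names the 2 largest rises, the 2 largest falls and the 2 smallest p-values by age. PMFT was placed in its list after its ID was seen. The comparison, the lists and their members were chosen with earlier results of these data known. Alternatives were other scalings, wells as arrays, fewer groups, a filter on dim oligos, complete oligos, an isolation block, other ages or weights, male buds, the hybridisation set and leaving out each isolation. Leaving out the only age 5 tip isolation also drops the age 5 buds from the comparison. Cyclic loess and the fits over ages 2, 5 and 6 or 1, 2 and 5 without the set were added after the data were seen.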

Additional observations from a re-analysis of the deposited data

Results flagged for a closer look

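Single isolations stood far from the rest of their organ in 7 of 80 checks, where chance gives about 1 in 20. The checks covered the named oligos and the clone oligos of the report, and these groups mix ages. Among buds they were PHYB1 in isolation a of age 2 (9.23), and PTTPIN3 (9.23), PTID1L1A (7.36) and A009P50U (9.91) in isolation a of age 1. Among June tips they were PttIAA6 (7.61) and HB2 (8.55) in isolation a of age 6, and PTID1L4 (5.65) in isolation b of age 1.

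The organ difference differed between ages in the limma F test for PTLF (adjusted p = 0.0262), PTAP1-2A (0.0295), PTCO11 (0.0296), PTCO12 (0.0209), PttIAA1 (6.8e-04), PttIAA6 (0.0415), PTBF1 (0.00133) and PTPGM (0.0476). It also differed for the clone oligos M102E03 (0.00656), R74E10 (0.0228), A009P50U (0.00266), V021F11 (4.9e-05) and V063C08 (4.9e-05). PTPGM passed in 3 and PttIAA6 in 7 of the 15 fits that leave out 1 isolation, and PTLF and PTCO12 in 13. R74E10 did not pass without isolation a of the age 1 buds (0.0882), nor V021F11 (0.356) and V063C08 (0.0557) with wells as separate arrays.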

How the results depend on the processing

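With the hybridisation set as a term, which leaves out age 1, the count of called oligos fell from 147 to 51, at ages 2, 5 and 6 to 28, 50 and 55, for June against May tips to 13, and for the test by age from 56 to 35. The test by age called 37 both with only the 8 compared groups in the fit and over ages 2, 5 and 6 without the set. Leaving out each isolation in turn gave 136 to 145 called oligos, 44 to 68 for the test by age and 38 to 58 for older against younger trees. The total counts stayed within 1.5 times those reported under the other settings. The split by direction moved more: for older against younger trees it was 15 upward and 28 downward after median centring. The isolation letters a and b do not pair the samples: deviations of buds and tips of the same letter and age correlated at -0.07 to 0.06 in 3 pairs, and with the letter as a replicate block 145 oligos were called, 52 by age and 50 for older against younger trees. Among the called oligos that the report names, signs turned for PTCO11 (-0.43 as deposited, -0.57 median-centred), R-AP2 (-0.10 and -0.24) and V063C08 (0.42 with the set). Of all 147 called oligos, 2 were called with the opposite sign as deposited and 6 after median centring. The cause was not tested.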

Other observations

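The oligo UM54TC12 was the brightest in 11 of the 14 June tip arrays as deposited. It was also the brightest in every May upper tip array of ages 2 and 5. Among the clone oligos of the report, the age 5 buds were the lowest for both R74E10 (6.32 and 6.53) and A009P50U (8.03 and 8.17), and also for M102E03 (7.63 and 7.91), which was higher in buds than in tips. PttIAA6 stood highest in the age 5 buds (10.06 and 10.24), where the other buds reached 9.19. These groups were seen in the values first, and no test was made of them.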
